A study of Mus musculus with 16 samples.

Results

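The genes described here are 10 genes of the contractile apparatus: the muscle actins Acta1, Acta2 and Actg2, the actin-binding proteins Tagln and Cnn1, the myosin light chain Myl9 and its kinase Mylk, the tropomyosins Tpm1 and Tpm2, and the LIM protein Csrp1. They were taken by name and matched by mouse Entrez gene ID, which found all 10 among the 19665 rows of the deposited count table. All 10 also passed the filter on low counts that left 13172 genes for testing. The samples were 16 RNA libraries of cultured tumour cells from the MMTV-PyMT mouse model of breast cancer, in which the MMTV promoter drives the polyoma middle T oncogene in mammary epithelium, on the FVB/N strain. Line 631 was wild type for Pygo2 (Pygo2 +/+, called WT) and line 828 was homozygous for the Pygo2 A342E knock-in (Pygo2 A342E/A342E, called AE). Both carried the PyMT transgene and were grown in DMEM with 10% FBS. Each line was grown with 2 ng/ml TGFb or without it for 4 days, and with 100 ng/ml Wnt3a or without it for 3 days, which gave 8 groups of 2 libraries. Each genotype was represented by 1 line, so genotype and line cannot be told apart. The labels do not say how the duplicates were grown, and p-values therefore measure only the spread between these libraries.

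Smooth muscle contracts when calcium-activated myosin light chain kinase phosphorylates the regulatory light chain of myosin, which then pulls on actin filaments decorated with tropomyosin and calponin. The genes of this apparatus are classic targets of serum response factor (SRF), which binds CArG boxes together with myocardin or the myocardin-related transcription factors, and TGFb signalling is a well known inducer of several of them. In the mammary gland they mark myoepithelial cells and the smooth muscle of vessels, and in carcinoma cells they are often read as part of the mesenchymal programme. Acta1 is the exception by tissue, since it encodes the main actin of skeletal muscle.

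Library totals ranged from 20530538 to 26191846 counts. Levels are in CPM (the count relative to the library's TMM-scaled total), given as replicate 1 and then replicate 2, and means are followed by the SD. The log2 ratio of the duplicates over all genes had an SD of 0.24 to 0.43 in the 4-day groups and of 0.45 to 0.92 in the 3-day groups. Among the latter, the untreated 3-day AE duplicates differed most in the contractile genes, though not over all genes. Their SD over all genes was 0.783, beside 0.919 in untreated 3-day WT and 0.859 in WT with Wnt3a. Which library of the pair was unusual cannot be told from the pair alone. Replicate 1 was higher than replicate 2 for 9 of the 10 contractile genes. The median log2 ratio was 1.52, beside 0 for the genes tested. The largest of these ratios were 2.86 for Tpm2, 2.66 for Acta1 and 2.49 for Myl9, at percentiles 99.8, 99.7 and 99.6 of the genes tested, and Mylk was the exception at -0.12. Replicate 1 was also the higher one for 9 of the 10 genes in 3-day AE with Wnt3a, by a smaller median of 0.47. In 4-day AE with TGFb it was the higher one for 1 of them, with a median of -0.17. The comparison of untreated AE with WT and that of Wnt3a in AE are given with and without replicate 1 of untreated 3-day AE. Group means of untreated 3-day AE include that library unless stated. Where the libraries of 2 groups are said not to overlap, the share of all genes that did the same was not computed. Non-overlap alone is therefore not read as a change. In bulk RNA, fewer cells with a transcript and less transcript per cell cannot be told apart.

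**Figure D1:**
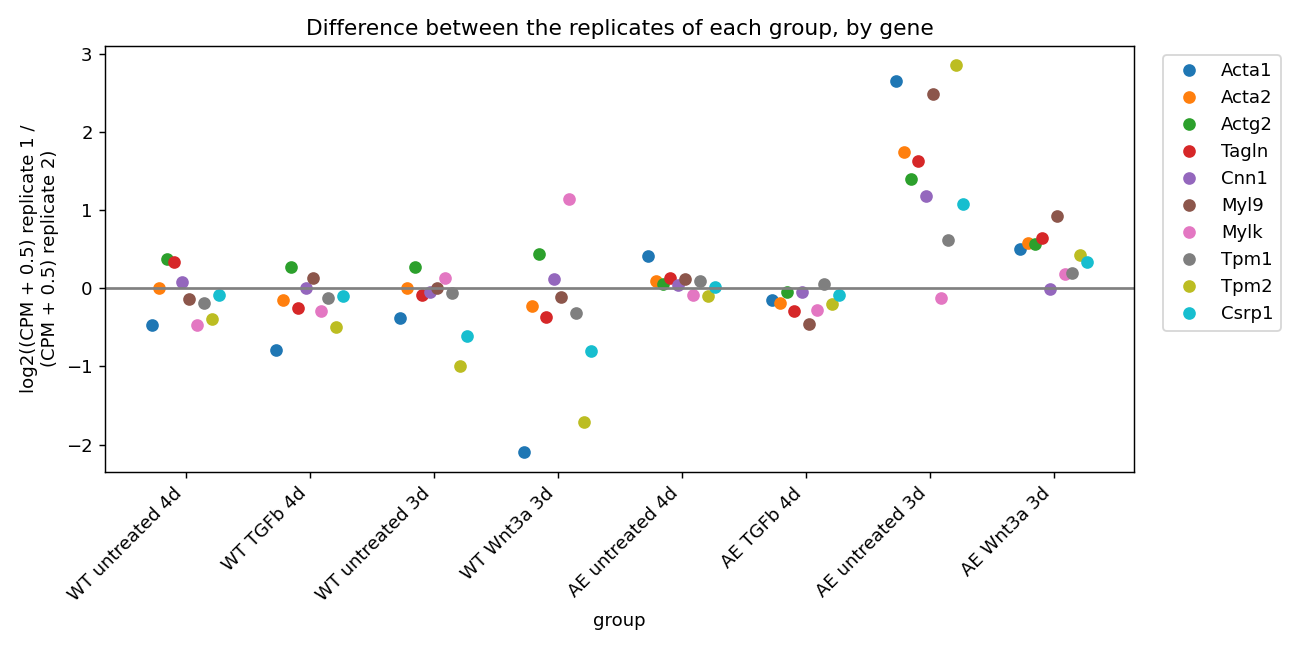
Log2 ratio of replicate 1 to replicate 2, each as CPM + 0.5, for each contractile gene (colour) in each group (x axis). In the untreated 3-day AE group 9 of 10 genes lie above 0, up to 2.86 for Tpm2. In the 3-day AE group with Wnt3a 9 also lie above 0, up to 0.93 for Myl9, and in the 4-day AE groups all lie close to 0.

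The actins are near copies of each other, so it was first asked how far their reads could be told apart. The coding sequences of Acta1, Acta2 and Actg2 were 84.4% to 85.4% identical in pairs, with no identical run longer than 29 bases, which is shorter than the 75-base reads. The start of each coding sequence shows how the differences are spaced. It is printed 5′ to 3′ from the GENCODE M21 transcripts (GRCm38), and capitals mark the positions at which the 3 genes are not all the same.
Acta1: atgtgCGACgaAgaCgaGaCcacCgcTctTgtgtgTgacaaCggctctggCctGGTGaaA
Acta2: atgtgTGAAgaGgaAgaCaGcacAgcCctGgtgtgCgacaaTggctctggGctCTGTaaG
Actg2: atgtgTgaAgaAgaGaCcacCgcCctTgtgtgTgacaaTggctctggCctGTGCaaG

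No 75-base window of the Acta2, Actg2, Tagln, Cnn1, Myl9, Mylk, Tpm1, Tpm2 or Csrp1 transcript was identical to a window of another gene's transcript. For Acta1, 6 of 1372 windows (0.437%) were shared, all 6 with Gm47692 and 3 of them with Actb, the cytoplasmic beta-actin. Since 3 of the 1846 Actb windows (0.163%) are thus identical in Acta1, the level of Acta1 was set beside that of Actb, which was 987 to 3137 CPM. Acta1 exceeded that 0.163% of Actb in 5 libraries: 0.548% and 0.734% in WT with TGFb, 0.208% and 0.532% in WT with Wnt3a, and 0.275% in replicate 1 of untreated 3-day AE. In the other 11 libraries it was 0.0135% to 0.121% of Actb. Whether reads from Actb were counted as Acta1 depends on how the authors treated reads with more than one match, which is not given in the sources used here, and was not tested.

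**Figure D2:**
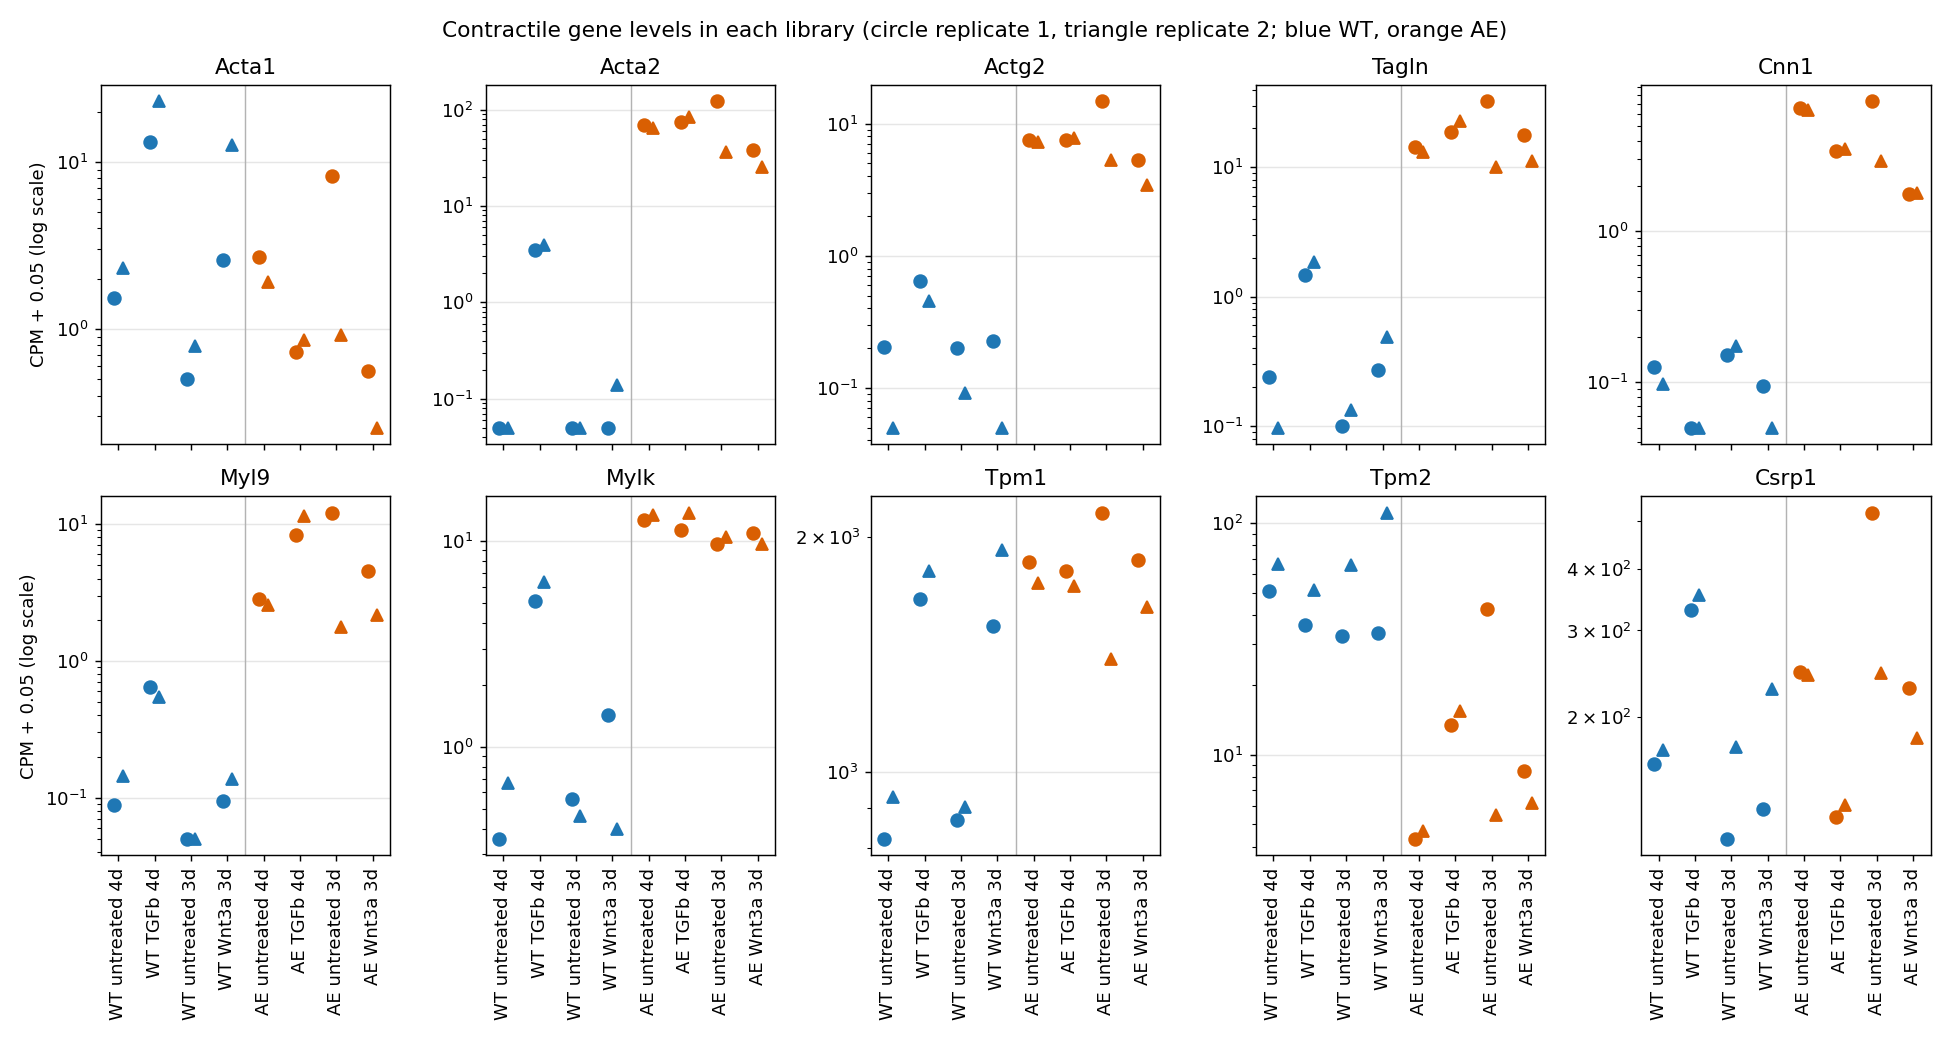
Level of each contractile gene in each of the 16 libraries, as CPM + 0.05 on a log axis that differs between panels (circles replicate 1, triangles replicate 2, WT in blue, AE in orange). Acta2, Actg2, Tagln, Cnn1, Myl9 and Mylk are higher in all 8 AE libraries than in all 8 WT libraries, and Tpm1 and Csrp1 overlap between the lines once treated libraries are included. Tpm2 has most of its higher values in WT. Acta1 overlaps between the lines, and its highest values are those of WT with TGFb. Actg2, Cnn1 and Myl9 met the filter on low counts only through AE libraries. The share of all genes that separate the lines in this way was not computed.

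The first comparison was AE against WT without treatment, over the 4 untreated libraries of each line (4-day and 3-day). Untreated AE cells had far more smooth muscle actin, transgelin, calponin, myosin light chain and light chain kinase RNA than WT cells, in which these genes were at or close to 0. In AE, 8 of the 10 genes were higher, 1 (Tpm2) was lower, and Acta1 did not pass (edgeR's quasi-likelihood test with a threshold of 0.05 on p-values adjusted by Benjamini-Hochberg across every gene tested, which is the test behind each adjusted p given here). Of all genes tested, 53.8% passed in this comparison, 27.4% as higher in AE and 26.4% as lower. The median fitted log2 difference of the 10 genes was 5.31, beside 0.01 over all genes tested, and 5.12 without replicate 1 of untreated 3-day AE. In all 4 untreated WT libraries 6 of the 10 genes were under 1 CPM, and Actg2, Cnn1 and Myl9 met the filter on low counts only through AE libraries, so their difference was in part a condition of being tested. Without replicate 1 of untreated 3-day AE the same number, 9, passed.

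Acta2, the smooth muscle alpha-actin (Entrez 11475, GRCm38.p6 chromosome 19, 34240336 to 34255585), had 0 counts in all 4 untreated WT libraries, which allows up to 0.0328 CPM over the group. In untreated AE it was at 68.6 and 63.7 CPM at 4 days and at 122 and 35.9 CPM at 3 days. Every AE library was thus above every WT library, and Acta2 was at least 2214-fold higher (floor of 3 counts over the group, adjusted p = 2.2e-07). Without replicate 1 of untreated 3-day AE the adjusted p was 1.1e-07. Actg2, the smooth muscle gamma-actin of gut and other viscera (Entrez 11468, chromosome 6, 83512909 to 83536251), was at 0.153 and 0 CPM at 4 days and 0.152 and 0.0411 CPM at 3 days in WT. In AE it was at 7.50 and 7.17 CPM and at 14.7 and 5.24 CPM. The groups did not overlap, and the fitted ratio was 92.4-fold (log2 difference 6.53, SE 0.632, adjusted p = 3.3e-06), with a log2 difference of 6.07 (adjusted p = 6.4e-06) without that library. Acta1 (Entrez 11459, chromosome 8, 123891758 to 123894775) was low in both lines, at 1.49 and 2.26 CPM and 0.455 and 0.740 CPM in WT and at 2.64 and 1.85 CPM and 8.13 and 0.867 CPM in AE. These values overlapped, and the log2 difference was 1.57 (SE 0.648, adjusted p = 0.058). It was 0.39 without replicate 1 of untreated 3-day AE and 2.0 without replicate 2 of that group.

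Tagln (transgelin or SM22 alpha, which bundles actin filaments, Entrez 21345, chromosome 9, 45929628 to 45936058) was at 0.191 and 0.0471 CPM at 4 days and 0.0505 and 0.0822 CPM at 3 days in WT. In AE it was at 14.2 and 13.0 CPM and at 32.4 and 10.1 CPM. That was a fitted 174-fold difference with no overlap (log2 7.44, SE 0.518, adjusted p = 2e-07). Cnn1 (calponin 1, which binds actin and inhibits the myosin ATPase, Entrez 12797, chromosome 9, 22099221 to 22109221) was at 0.0764 and 0.0471 CPM and 0.101 and 0.123 CPM in WT. In AE it was at 6.50 and 6.33 CPM and at 7.24 and 2.89 CPM, 63.4-fold higher with no overlap (log2 5.99, SE 0.436, adjusted p = 6e-07). Without replicate 1 of untreated 3-day AE the log2 difference was 6.91 for Tagln (adjusted p = 1.47e-07) and 5.58 for Cnn1 (adjusted p = 5.61e-07).

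Myl9, the regulatory light chain of smooth muscle myosin (Entrez 98932, chromosome 2, 156775408 to 156781657), had 3 counts in all over the 4 untreated WT libraries, as 0.0382 and 0.0943 CPM at 4 days and 0 in both libraries at 3 days. In AE it was at 2.77 and 2.51 CPM and at 12.1 and 1.73 CPM, which gave a ratio of 146 with a 95% counting interval of 49.5 to 709 (adjusted p = 2.6e-05). The fitted log2 difference of Myl9 was 7.80, and 6.80 (adjusted p = 5.75e-06) without replicate 1 of untreated 3-day AE, its highest library. Mylk, the kinase that phosphorylates it (Entrez 107589, chromosome 16, 34745199 to 35002436), was at 0.306 and 0.613 CPM and 0.505 and 0.411 CPM in WT and at 12.6 and 13.3 CPM and 9.59 and 10.4 CPM in AE. Mylk had the closest AE values of the low WT genes, all within 9.59 to 13.3 CPM, and differed 24.9-fold (log2 4.64, SE 0.368, adjusted p = 5.9e-07), or by 4.67 on the log2 scale (adjusted p = 2.58e-06) without that library.

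The remaining genes were well expressed in both lines. Tpm1 (Entrez 22003, chromosome 9, 67022590 to 67049672), whose isoforms wind along actin filaments in muscle and non-muscle cells, was at 821 and 929 CPM and 869 and 903 CPM in WT. In AE it was at 1855 and 1746 CPM and at 2149.6 and 1396 CPM, 2.03-fold higher with no overlap (log2 1.02, SE 0.163, adjusted p = 0.00021), and at a log2 difference of 0.85 (adjusted p = 0.000498) without replicate 1 of untreated 3-day AE. Csrp1, a LIM-domain protein of actin bundles and smooth muscle (Entrez 13007, chromosome 1, 135720063 to 135752229), was at 161 and 172 CPM and 113 and 174 CPM in WT and at 248 and 244 CPM and 520.2 and 246 CPM in AE. It was 1.99-fold higher without overlap (log2 0.99, SE 0.244, adjusted p = 0.0045), and at a log2 difference of 0.67 (adjusted p = 0.0219) without replicate 1 of untreated 3-day AE. Tpm2, the beta-tropomyosin (Entrez 22004, chromosome 4, 43513726 to 43523583), went the other way, from 50.7 and 66.4 CPM and 32.5 and 65.5 CPM in WT to 4.27 and 4.62 CPM and 42.6 and 5.45 CPM in AE. All AE libraries but one were far below WT, and replicate 1 of untreated 3-day AE lay within the WT range. The log2 difference was -2.37 (SE 0.54, adjusted p = 0.0027), and -3.44 (adjusted p = 0.000104) without that library.

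Per length of exon sequence (RPKM), the order of mean levels in untreated WT was Tpm1 (135.8), Csrp1 (79.2), Tpm2 (18.5), Acta1 (0.805), Actg2 (0.0555), Tagln (0.0466), Mylk (0.0407), Cnn1 (0.0318), Myl9 (0.0285) and Acta2 (0). The neighbours from Actg2 to Myl9 all rest on libraries with few or no counts and do not differ beyond their spread. In untreated AE the order was Tpm1 (275.5), Csrp1 (160.8), Acta2 (33.0), Tagln (8.76), Actg2 (5.55), Tpm2 (4.89), Myl9 (4.10), Acta1 (2.20), Cnn1 (2.10) and Mylk (1.02). The libraries of Tpm1 and Csrp1 overlap, as do those of each pair of neighbours from Tagln to Mylk. Without replicate 1 of untreated 3-day AE the order was Tpm1 (256.9), Csrp1 (125.8), Acta2 (25.5), Tagln (6.26), Actg2 (4.26), Myl9 (2.01), Cnn1 (1.92), Tpm2 (1.64), Acta1 (1.16) and Mylk (1.08), and neither Tpm1 and Csrp1 nor Tagln and Actg2 overlapped. Of the summed CPM of the 6 actin genes, the 3 muscle actins Acta1, Acta2 and Actg2 made up 0.0403% and 0.0542% in untreated 4-day WT and 1.63% and 1.69% in untreated 4-day AE, so that Actb and Actg1 were nearly all of the actin RNA in both lines.

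The second comparison was TGFb against no treatment at 4 days. In WT cells TGFb raised Acta1, Acta2, Tagln, Mylk, Tpm1 and Csrp1, so 6 of 10 genes rose and none fell, and Actg2, Cnn1, Myl9 and Tpm2 did not pass. Of all genes tested 27.6% passed, 14.7% as higher and 12.9% as lower. The median log2 change of the 10 genes was 2.74, or 2.98 over the 9 genes for which a change or bound could be given, beside 0.06 over all genes tested. The induced genes ranged from highly expressed Tpm1 to Acta2, which was not detected before.

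Of the actins, Acta2 went from 0 counts in both untreated WT libraries to 3.44 and 3.86 CPM with TGFb. That is 0 against 156 counts and at least 57.8-fold higher (adjusted p = 0.00032). Acta1 went from 1.49 and 2.26 CPM to 13.1 and 23.0 CPM, without overlap, and was the more abundant of the muscle actins in WT after TGFb also per length (mean RPKM of 11.8, against 1.66 for Acta2 and 0.319 for Actg2). Its fitted increase was 9.65-fold (log2 3.27, SE 0.903, adjusted p = 0.018). Leaving out a library ended the Acta1 call for WT TGFb replicate 2 (log2 2.81, adjusted p = 0.0891) and for either untreated 4-day WT library (adjusted p = 0.137 without replicate 1, 0.0794 without replicate 2). Actg2 went from 0.153 and 0 CPM to 0.590 and 0.404 CPM, on 4 against 21 counts, and did not pass (log2 2.50, SE 1.03, adjusted p = 0.093).

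Tagln went from 0.191 and 0.0471 CPM to 1.43 and 1.80 CPM, 12.4-fold (log2 3.63, SE 0.716, adjusted p = 0.0024). Mylk went from 0.306 and 0.613 CPM to 5.06 and 6.28 CPM, also 12.4-fold (log2 3.64, SE 0.51, adjusted p = 0.00022). In both genes each treated library was several times above each untreated one. Myl9, the substrate of Mylk, was at 0.0382 and 0.0943 CPM before and 0.590 and 0.494 CPM after, a ratio of 8.52 with a 95% counting interval of 2.58 to 44.3, and did not pass (adjusted p = 0.087). Cnn1 had 3 counts in the untreated libraries and 0 with TGFb, so no fold is given (adjusted p = 0.13): the calponin gene was not detected at this depth after TGFb, where up to 0.0704 CPM would have been missed.

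Tpm1 doubled from 821 and 929 CPM to 1664 and 1807 CPM (1.98-fold, log2 0.99, SE 0.23, adjusted p = 0.0067). Csrp1 went from 161 and 172 CPM to 331 and 354 CPM (2.06-fold, log2 1.04, SE 0.345, adjusted p = 0.041). The duplicates of both genes were close together and the groups well apart, but the call of Csrp1 was near the threshold: 10 of the 16 fits that left out a library gave an adjusted p of 0.0539 to 0.188 at a nearly constant log2 change of 0.98 to 1.10. The call of Tpm1 was lost without WT TGFb replicate 2 (adjusted p = 0.0502) and without untreated 4-day WT replicate 1 (adjusted p = 0.0751). Tpm2 was at 50.7 and 66.4 CPM untreated and 36.3 and 51.5 CPM with TGFb, overlapping values with a log2 change of -0.42 (SE 0.72, adjusted p = 0.73).

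**Figure D3:**
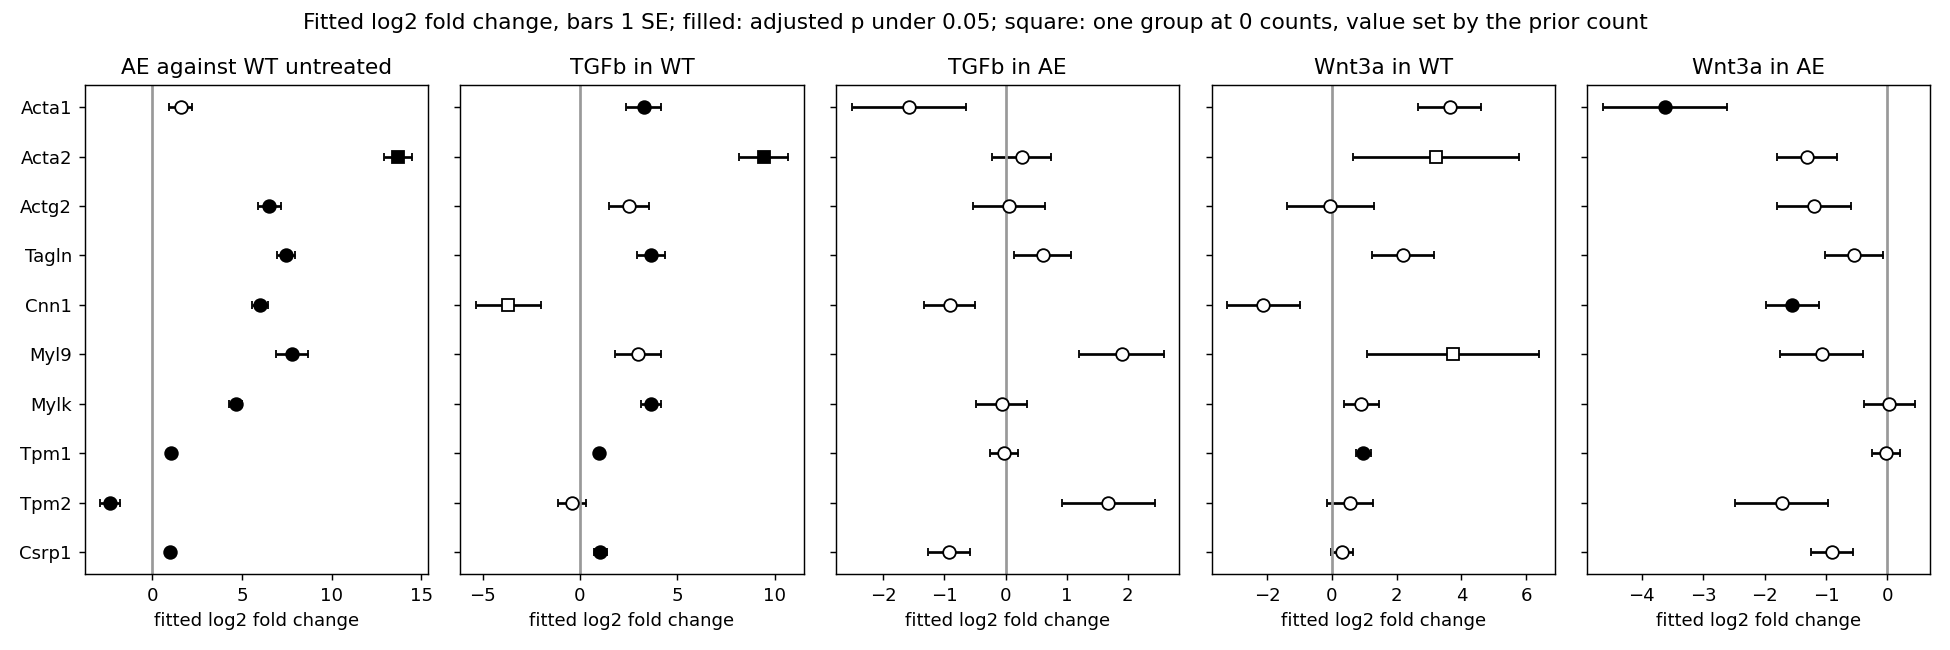
Fitted log2 fold change of each contractile gene in 5 comparisons, with bars of 1 SE (filled symbols: adjusted p under 0.05; squares: a group at 0 counts, where the value depends on the prior count). With TGFb 6 genes are filled in WT and 0 in AE, and in AE against WT only Acta1 is open.

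In AE cells 0 of the 10 genes passed with TGFb in edgeR's quasi-likelihood test over all 16 libraries, while 10.4% of all genes tested did, 6.09% as higher and 4.32% as lower. At an unadjusted p under 0.05 there were 3 (Myl9, Tpm2 and Csrp1), and DESeq2 called 0. The share of all genes at that unadjusted level was not computed. When the test was run on the 8 libraries of the 4-day experiment alone, whose duplicates were closer, 6 passed: Myl9, Tpm2 and Tagln as higher and Acta1, Cnn1 and Csrp1 as lower. Over all genes, 4517 passed in that fit, beside 1371 in the fit to all 16 libraries. In the latter the median log2 change of the 10 genes was 0.02, beside 0 over all genes tested.

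Among the actins in AE, Acta2 was at 68.6 and 63.7 CPM untreated and 74.3 and 84.5 CPM with TGFb (log2 0.26, SE 0.483, adjusted p = 0.85). Actg2 was at 7.50 and 7.17 CPM and at 7.46 and 7.77 CPM (log2 0.05, SE 0.593, adjusted p = 0.98). Acta1 was at 2.64 and 1.85 CPM and at 0.678 and 0.811 CPM (log2 -1.58, SE 0.938, adjusted p = 0.39, and 0.0165 in the 4-day libraries alone). Acta2 and Acta1 did not overlap between the treated and untreated libraries, in opposite directions, and Actg2 did.

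Tagln was at 14.2 and 13.0 CPM and at 18.6 and 22.8 CPM with TGFb (log2 0.61, SE 0.473, adjusted p = 0.56, and 0.0394 in the 4-day libraries alone). Cnn1 was at 6.50 and 6.33 CPM and at 3.35 and 3.46 CPM (log2 -0.91, SE 0.419, adjusted p = 0.23, and 0.00619 in the 4-day libraries alone). Tagln and Cnn1 thus lay on opposite sides of their untreated levels, each without overlap, but neither passed in the fit to all 16 libraries. Myl9 was at 2.77 and 2.51 CPM and at 8.23 and 11.5 CPM (log2 1.90, SE 0.689, adjusted p = 0.12, and 0.000277 in the 4-day libraries alone), a ratio of 3.73. Mylk was at 12.6 and 13.3 CPM and at 11.2 and 13.7 CPM, overlapping values (log2 -0.06, SE 0.413, adjusted p = 0.96). Tpm1 was at 1855 and 1746 CPM and at 1811 and 1733 CPM, which also overlapped (log2 -0.02, SE 0.228, adjusted p = 0.98).

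Tpm2 was at 4.27 and 4.62 CPM untreated and 13.3 and 15.3 CPM with TGFb in AE (log2 1.68, SE 0.761, adjusted p = 0.22, and 0.000413 in the 4-day libraries alone). Even so, the treated AE libraries stayed below the lowest WT value of 32.5 CPM. Csrp1 was at 248 and 244 CPM and at 126 and 133 CPM (log2 -0.93, SE 0.344, adjusted p = 0.12, and 7.96e-05 in the 4-day libraries alone), near a halving with very close duplicates.

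The difference between the lines in the TGFb response was tested directly. It passed for 4 of the 10 genes, all with the lower response in AE, while 8.83% of all genes tested passed (5.04% as a higher and 3.79% as a lower response in AE). The median difference of the 10 genes was -2.21, beside -0.03 over all genes tested. Mylk differed by -3.70 on the log2 scale (SE 0.654, adjusted p = 0.0038), from changes of 3.64 in WT and -0.06 in AE. Acta2 differed by -9.16 (SE 1.47, adjusted p = 0.0037), a fitted value that depends on the prior count since untreated WT was at 0. Acta1 differed by -4.85 (SE 1.29, adjusted p = 0.036), from 3.27 in WT and -1.58 in AE, and Csrp1 by -1.97 (SE 0.487, adjusted p = 0.025), from 1.04 in WT and -0.93 in AE. The calls of Acta2 and Mylk held in all 24 alternative fits, that of Acta1 in 13 and that of Csrp1 in 15. Leaving out any single 4-day library ended both the Acta1 call (adjusted p of 0.0565 to 0.147) and the Csrp1 call (0.0625 to 0.102), and leaving out either AE Wnt3a library ended the Acta1 call (0.0503 and 0.0546). Tagln missed the threshold (-3.03, SE 0.872, adjusted p = 0.051), as did Tpm1 (-1.01, SE 0.323, adjusted p = 0.078).

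TGFb did not bring most of these genes in WT to the level of untreated AE. After TGFb, WT had 5.52% of the untreated 4-day AE mean for Acta2, 6.78% for Actg2, 11.8% for Tagln, 20.5% for Myl9 and 43.7% for Mylk, and Cnn1 stayed undetected. Tpm1 reached 96.4% of it, and Csrp1 was at 139%. Acta1 (805%) and Tpm2 (987%) were higher in WT after TGFb than in untreated AE. These are ratios of group means of 2 libraries each and were not tested.

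The third comparison was Wnt3a against no treatment at 3 days, where the duplicates were farther apart. In WT, Tpm1 was the 1 gene of 10 that passed, as higher, while 4.28% of all genes tested did (2.26% higher, 2.02% lower). The median log2 change was 0.94, or 0.74 over the 8 genes with a change or bound, beside 0.01 over all genes tested. Tpm1 went from 869 and 903 CPM to 1540.3 and 1923 CPM, without overlap (1.95-fold, log2 0.97, SE 0.23, adjusted p = 0.035). The call was lost in 14 of 24 alternative fits, among them 12 of the 16 that left out a library (adjusted p of 0.0517 to 0.177), and the 3-day libraries alone gave an adjusted p of 0.429.

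Acta1 in WT was at 0.455 and 0.740 CPM untreated and at 2.54 and 12.5 CPM with Wnt3a, which did not overlap but differed widely between the treated duplicates (log2 3.63, SE 0.973, adjusted p = 0.058). Acta2 had 0 counts untreated and 0 and 2 counts with Wnt3a, both under the floor, so no fold is given (adjusted p = 0.45). Tagln was at 0.0505 and 0.0822 CPM and at 0.223 and 0.436 CPM, a ratio of 4.86 with a 95% counting interval of 1.38 to 26.2 (adjusted p = 0.21). Mylk was at 0.505 and 0.411 CPM and at 1.38 and 0.349 CPM (log2 0.92, adjusted p = 0.33). In these 4 genes the WT cells thus stayed at low levels, the single value above 10 CPM being Acta1 in replicate 2.

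Actg2, Cnn1 and Myl9 had between 0 and 5 counts per group in WT in this experiment and gave no call (adjusted p of 1.0, 0.29 and 0.41). Tpm2 was at 32.5 and 65.5 CPM and at 33.6 and 110.9 CPM, with replicate 2 the higher in both groups (log2 0.56, SE 0.72, adjusted p = 0.64). Csrp1 was at 113 and 174 CPM and at 130.3 and 228 CPM, again higher in replicate 2 of both groups (log2 0.32, SE 0.342, adjusted p = 0.57).

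In AE, Wnt3a lowered Acta1 and Cnn1, 2 of the 10 genes, while 9.33% of all genes tested passed (4.59% higher, 4.74% lower). The median log2 change was -1.13, beside -0.03 over all genes tested, and -0.10 without replicate 1 of the untreated cells. Both calls rested on replicate 1 of the untreated cells. Acta1 was at 8.13 and 0.867 CPM untreated and at 0.508 and 0.207 CPM with Wnt3a (log2 -3.63, SE 1.01, adjusted p = 0.042), and without that library the change was -1.26 (adjusted p = 0.601). Cnn1 was at 7.24 and 2.89 CPM and at 1.72 and 1.74 CPM (log2 -1.55, SE 0.434, adjusted p = 0.048), and without it -0.74 (adjusted p = 0.345). Both calls were also lost in most of the other fits that left out a library, 11 of 16 in all (adjusted p of 0.0558 to 0.601 for Acta1 and of 0.0557 to 0.345 for Cnn1). With replicate 1 of the untreated cells kept and replicate 2 left out, the log2 changes were larger. They were -4.48 for Acta1, -2.55 for Tpm2, -2.06 for Cnn1, -1.935 for Acta2, -1.87 for Myl9 and -1.76 for Actg2. Csrp1 was at -1.34, Tagln at -1.15, Tpm1 at -0.30 and Mylk at 0.10.

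The actins Acta2 and Actg2, with Tagln, Myl9, Tpm2 and Csrp1, were likewise higher in replicate 1 of the untreated cells than in replicate 2. Acta2 was at 122 and 35.9 CPM untreated and at 38.3 and 25.4 CPM with Wnt3a (log2 -1.31, SE 0.491, adjusted p = 0.16). Actg2 was at 14.7 and 5.24 CPM and at 5.28 and 3.39 CPM (log2 -1.20, adjusted p = 0.31), and Tagln at 32.4 and 10.1 CPM and at 17.9 and 11.2 CPM (log2 -0.54, adjusted p = 0.61). In each of these genes the Wnt3a libraries overlapped the untreated ones, at the level of replicate 2. Myl9 was at 12.1 and 1.73 CPM and at 4.46 and 2.11 CPM (log2 -1.07, adjusted p = 0.46). Tpm2 was at 42.6 and 5.45 CPM and at 8.40 and 6.12 CPM (log2 -1.72, adjusted p = 0.22), and Csrp1 at 520.2 and 246 CPM and at 229 and 181 CPM (log2 -0.90, adjusted p = 0.15). Mylk (9.59 and 10.4 CPM, then 10.9 and 9.60 CPM) and Tpm1 (2149.6 and 1396 CPM, then 1867 and 1628 CPM) had log2 changes of 0.03 and -0.02. Without replicate 1 of the untreated cells the log2 change with Wnt3a was -0.17 for Acta2, -0.27 for Actg2 and -0.27 for Csrp1. It turned positive for Myl9 (0.92), Tagln (0.53) and Tpm2 (0.41), and was 0.32 for Tpm1 and -0.03 for Mylk. None of these passed (adjusted p of 0.392 to 0.997).

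The difference between the lines in the Wnt3a response passed for Acta1 alone of the 10 genes, and for 2.34% of all genes tested (1.18% higher, 1.16% lower). Acta1 differed by -7.26 on the log2 scale (SE 1.4, adjusted p = 0.02), from changes of 3.63 in WT and -3.63 in AE. Without replicate 1 of untreated 3-day AE the difference was -4.89 (adjusted p = 0.0588). It was also lost without WT Wnt3a replicate 2 (-5.69, adjusted p = 0.059), untreated 3-day WT replicate 1 (-6.97, adjusted p = 0.0688), AE Wnt3a replicate 1 (-8.04, adjusted p = 0.072) or AE Wnt3a replicate 2 (-6.80, adjusted p = 0.121). The median difference of the 10 genes was -1.75, beside -0.03 over all genes tested, and -0.79 without replicate 1 of untreated 3-day AE.

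Across the 8 group means of log2(CPM + 0.5), Acta2, Actg2, Tagln, Cnn1, Myl9 and Mylk followed each other, with Pearson's r of 0.83 to 0.99 in pairs. These 8 points share 2 lines and their libraries, and the lines differ most in these genes. Acta1 did not follow them (r of -0.32 to -0.04), and was highest in WT with TGFb, where they were low, and Tpm2 ran opposite to them (r of -0.84 to -0.72). The genes closest in pattern to Acta2 among 11475 compared were Slco1a5, an organic anion transporter (r = 0.9986), the axon guidance factor Ntn1 (r = 0.9975) and the actin and phosphatase-1 regulator Phactr1 (r = 0.9971). Those closest to Tagln were Gulp1 (0.9948), Lrrc32 (0.9942), which encodes GARP, a docking receptor for latent TGFb, and Rgl1 (0.9941). Those closest to Tpm1, which was high in every group but untreated WT, were Pomk (0.9764), Tm7sf2 (0.9628) and Ccpg1os (0.9479).

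Further genes of the same pathways were read from lists. Of 16 other smooth muscle genes 15 were tested, and in untreated AE 10 were higher (among them Synpo2, Des, Itga7, Kcnmb1, Myh11, Tgfb1i1, Itga8, Pdlim3 and Lmod1) and 1, Cald1, was lower, where 27.4% of all genes tested were higher and 26.4% lower. Of these, Synpo2, Des, Kcnmb1, Myh11, Pdlim3 and Tgfb1i1 were under 1 CPM in every WT library and met the filter on low counts only through AE, so being higher in AE was a condition of their being tested. Lmod1, a leiomodin that nucleates actin filaments, went from 0.602 ± 0.29 to 22.0 ± 8.5 CPM (SD, n = 4 in each line, log2 5.20, adjusted p = 2.6e-07). The smooth muscle integrin Itga8 went from 152 ± 34 to 488 ± 89 CPM (log2 1.68, adjusted p = 0.00033). The median log2 difference of this list was 3.07, beside 0.01 over all genes tested, and it holds those 6 genes.

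With TGFb, 4 of these 15 genes rose in WT (Cald1, Itga7, Pdlim7 and Lmod1, median log2 change 0.44, where 14.7% of all genes tested rose) and Itga8 alone fell in AE, from 531 ± 41 to 182 ± 4.9 CPM (n = 2, log2 -1.54, adjusted p = 0.028). Pdlim7, a PDZ and LIM protein of stress fibres, went from 60.4 ± 13 to 189 ± 61 CPM in WT (adjusted p = 0.049), and the actin- and myosin-binding caldesmon Cald1 from 840.3 ± 48 to 1845 ± 178 CPM (adjusted p = 0.021). With Wnt3a, Ppp1r12b alone fell in WT, and 3 fell in AE, among them Itga7 and Itga8. Of all genes tested 4.32% fell with TGFb in AE, and with Wnt3a 2.02% fell in WT and 4.74% in AE. Itga8 went from 446 ± 122 to 72.4 ± 7.2 CPM (n = 2, log2 -2.62, adjusted p = 0.0018). Itga7, the laminin-binding integrin of muscle, was the 1 gene of the list whose response was lower in AE for TGFb (-1.87, adjusted p = 0.036) and for Wnt3a (-2.63, adjusted p = 0.025).

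Of 11 genes for SRF, its co-activators and other targets, 10 were tested. In untreated AE 3 were higher (Cnn2, Flna and Srf) and 2 lower (Fhl2 and Filip1l), 5 of 10 where 53.8% of all genes tested passed. With TGFb 3 rose in WT: Filip1l from 47.6 ± 7.8 to 275 ± 32 CPM (adjusted p = 0.0011), the LIM protein Fhl2 by 1.49 on the log2 scale (SE 0.28, adjusted p = 0.0018) and calponin 2 (Cnn2) from 151 ± 30 to 408 ± 68 CPM (adjusted p = 0.019), each with n = 2. In AE 1 rose with TGFb, Filip1l from 14.6 ± 0.091 to 48.1 ± 0.63 CPM (adjusted p = 0.025). Of all genes tested 14.7% rose with TGFb in WT and 6.09% in AE. With Wnt3a 0 of the 10 passed in either line (0 in WT and 1 in AE at an unadjusted p under 0.05 in edgeR's test), and 0 passed in either response difference (4 for TGFb and 3 for Wnt3a unadjusted). Myocardin (Myocd), the muscle co-activator of SRF, had 0 counts in every WT group and 1 to 8 counts per AE group.

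All 16 non-muscle actomyosin genes were tested. In untreated AE 4 were higher (Actb, Myh9, Myl6 and Myl12b) and 6 lower (Actn1, Rock1, Rock2, Tagln2, Tpm4 and Tpm3), with a median log2 difference of 0.04. That is 10 of 16, near the 53.8% of all genes tested. The transgelin paralog Tagln2 went from 622 ± 209 to 114 ± 66 CPM (adjusted p = 0.00022) and Tpm3 from 380 ± 59 to 114 ± 3.1 CPM (adjusted p = 3.8e-07), opposite to Tagln and Tpm1. With TGFb 5 rose in WT (Actn1, Actg1, Myh9, Myl12a and Cnn3), beside 14.7% of all genes tested, and 0 passed in AE (0 at an unadjusted p under 0.05 in edgeR's test). With Wnt3a 0 passed in either line (5 in WT and 1 in AE unadjusted). Cnn3 alone had a lower TGFb response in AE (-0.84, adjusted p = 0.05). Of 19 striated muscle genes 7 reached the filter. In untreated AE 3 of them were higher (Des, Myl4 and Tnnt3) and 2 lower (Tnnc1 and Tnnt2), where 27.4% of all genes tested were higher and 26.4% lower. Des and Tnnt3 met the filter only through AE libraries. Tnnt2, cardiac troponin T, went from 76.2 ± 24 CPM in WT to 3.41 ± 1.3 CPM in AE (adjusted p = 3.1e-07). With TGFb it went from 2.68 ± 0.32 to 31.6 ± 0.26 CPM in AE (n = 2, adjusted p = 0.0006), and with Wnt3a from 4.14 ± 1.6 to 23.4 ± 6.1 CPM (adjusted p = 0.0028). In WT, Myl4 alone of these rose with TGFb. Tnnt2 was the 1 gene of these lists with a higher TGFb response in AE (3.13, adjusted p = 0.0052).

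Markers of other cell types were read beside these results. The summed luminal markers Krt8, Krt18, Epcam, Cdh1, Elf5 and Kit were at 1474 to 3024 CPM in every library. Within this sum, Kit went from 0.0236 CPM in untreated 4-day WT to 422 CPM in untreated 4-day AE and Elf5 from 4.44 to 394 CPM, both higher in AE. Kit met the filter on low counts only through AE libraries. Epcam was the marker of this sum that passed as lower in AE, at 486 and 363 CPM in untreated 4-day WT and AE. Krt8 did not pass, at 539 and 239 CPM in untreated WT and AE at 4 days and 261 and 393 CPM at 3 days. In AE Kit fell to 29.4 CPM and Elf5 to 61.8 CPM with TGFb. The 6 myoepithelial or basal markers (Krt5, Krt14, Krt17, Trp63, Oxtr and Cdh3) summed to 244 to 1086 CPM in untreated WT and 887 to 1384 CPM in untreated AE, where Krt5, Krt14, Krt17 and Trp63 were lower and Oxtr was higher. With Wnt3a this sum was 202.5 to 314 CPM in AE, where Oxtr and Trp63 fell. The calls of Acta1 and Cnn1 as lower with Wnt3a in AE rested on the untreated AE library that stood apart, as given above. Whether they go with the fall of these markers was not tested. The 7 fibroblast markers summed to 5.70 to 10.2 CPM in untreated WT, with Lum, Col3a1, Thy1 and Fap at 0, and to 207 to 324 CPM in untreated AE, with Lum at 0. With TGFb they were at 37.2 to 47.5 CPM in WT, and in AE at 263 to 283 CPM against 207 to 219 CPM without it at 4 days. The 6 smooth muscle cell or pericyte markers summed to 78.5 to 138 CPM in untreated WT, with Rgs5 at 0, and to 171 to 311 CPM in untreated AE. With TGFb they were at 577 to 619 CPM in WT and 501 to 534 CPM in AE. Mcam carried most of this sum, with a mean of 118 CPM of 121.5 CPM in untreated 4-day WT and 583 CPM of 598 CPM in WT with TGFb, where Cspg4 was at 0. Of these 6, Myh11, the smooth muscle myosin heavy chain, was at 0.0191 ± 0.027 CPM in untreated 4-day WT and 1.65 ± 0.17 CPM in untreated 4-day AE, far below Acta2 in AE.

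The 5 striated muscle markers summed to at most 3.52 CPM in any library, with Myog at 0 in 7 of the 8 groups, the 2 endothelial markers to at most 2.69 CPM and the immune marker Ptprc to at most 0.758 CPM. The fibroblast and the smooth muscle or pericyte sums were thus higher in untreated AE than in untreated WT, and higher with TGFb in both lines. The smooth muscle or pericyte sum was 577 to 619 CPM in WT with TGFb, above its 205 to 209 CPM in untreated 4-day AE. By group means Acta1, Tpm2 and Csrp1 were also higher in WT with TGFb than in untreated 4-day AE. Acta2, Actg2, Tagln, Cnn1, Myl9 and Mylk were lower, and Tpm1 was near the same level. The part of these markers in the results was not tested.

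Start regions were read for motifs of known regulators because the genes that were high in AE moved together. RefSeq (GRCm38.p6) gave a start window, from 250 bases before to 50 after, for 8 of the 10 genes, but not Actg2 and Tagln. The CArG box, bound by SRF, is CC, 6 bases of A or T, and GG, and a near match allows 1 other base among the 6. Of 32851 windows, 1.63% held a CArG box, 9.98% a CArG box or near match, 14.7% CATTCC (the TEAD site), 49.6% CAGAC (a SMAD half-site) and 8.32% TATAAA on the strand of the gene. The first 4 motifs were searched on both strands. Among the 8 contractile genes, Acta1 and Myl9 held a CArG box, Acta2 held near matches, and no other gene held either. CATTCC was found in 4 of them (Acta1, Acta2, Mylk and Tpm1), CAGAC in 5 (Acta1, Acta2, Cnn1, Mylk and Csrp1) and TATAAA in 1 (Acta1). The windows of Mylk (chr16:34784700-34784999) and Tpm1 (chr9:67049164-67049463) lie wholly within the gene spans given above. So does the second Csrp1 window (chr1:135728917-135729216), which held the CAGAC matches of Csrp1. For Mylk and Tpm1 the outer start of the gene was thus not read. A match is a description of these letters and not a binding site, and CArG boxes farther away were not read.

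The stretches with CArG letters are printed 5′ to 3′ on the strand of the gene, with CArG boxes and near matches in capitals. For Acta1 this is chr8:123894776-123895025 (minus strand), with the CArG box 73 bases before the start and near matches 205 and 154 bases before it. For Acta2 these are 30 bases around each near match, chr19:34255438-34255467 and chr19:34255388-34255417 (minus strand), 84 and 34 bases before the RefSeq start and inside the first exon of a longer GENCODE transcript. For Myl9 it is chr2:156775214-156775419 (plus strand), with the CArG box 161 and the near match 99 bases before the start. Of these 3 genes, Acta2 and Myl9 were high in AE and nearly absent from untreated WT, and Acta1 was highest in WT with TGFb.
Acta1: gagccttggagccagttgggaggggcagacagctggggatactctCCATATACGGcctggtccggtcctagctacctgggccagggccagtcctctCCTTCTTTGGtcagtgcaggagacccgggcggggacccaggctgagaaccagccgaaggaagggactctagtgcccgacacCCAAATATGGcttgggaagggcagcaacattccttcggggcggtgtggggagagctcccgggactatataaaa
Acta2, first near match: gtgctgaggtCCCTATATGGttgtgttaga
Acta2, second near match: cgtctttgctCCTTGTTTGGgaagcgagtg
Myl9: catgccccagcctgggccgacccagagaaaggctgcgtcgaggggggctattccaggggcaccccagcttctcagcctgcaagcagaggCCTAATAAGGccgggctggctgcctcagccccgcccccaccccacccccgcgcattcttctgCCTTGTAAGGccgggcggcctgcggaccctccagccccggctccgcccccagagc

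**Figure D4:**
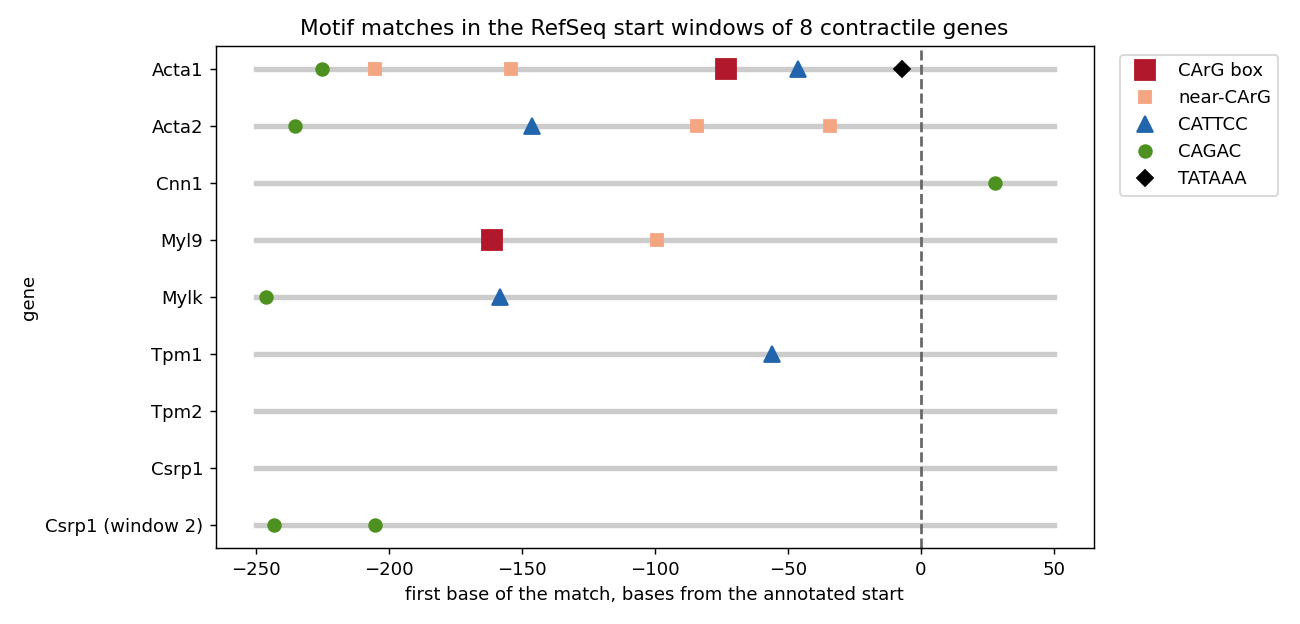
Motif matches in the RefSeq start windows of 8 contractile genes (Csrp1 has 2 windows), by the distance in bases of the first base of the match from the annotated start (dashed line). The windows of Mylk and Tpm1 and the second window of Csrp1 lie wholly within the gene. CArG boxes lie 73 bases before the start of Acta1 and 161 bases before that of Myl9, and near matches lie before Acta1, Acta2 and Myl9 only.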

How the data were processed

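Polyadenylated RNA was sequenced as single reads of 75 bases from TruSeq Stranded mRNA libraries of 200 ng RNA, per the labels' protocols. The submitters' processing notes name STAR and mm10. No source used here gives the STAR version, counting tool, strand setting or annotation. The deposited table holds whole-number counts per Entrez gene and library, made by the authors, and 19613 of its 19665 rows had a symbol in the GRCm38.p6 gene table. Replicates of a group differed by more than sampling noise (chi-square per degree of freedom 4.70 to 203), so all 16 libraries were kept.

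Genes with at least 1 CPM in at least 2 libraries were tested. One edgeR quasi-likelihood model (TMM scaling, 1 mean per group, 8 residual degrees of freedom) was fitted to all libraries, with Benjamini-Hochberg adjustment over 13172 genes. The SE is the log2 fold change divided by the square root of F. For a lower bound, 3 counts stood in for a group at 0, and ratios on 1 to 3 counts carry exact 95% intervals, which cover counting error only. All 10 genes are named in each comparison. From the 4 lists of related genes (other smooth muscle, SRF, non-muscle actomyosin, striated muscle), up to 3 passing genes of at least 5 CPM were taken by size of change. One gene of these lists is counted but not reported here by name. Markers were summed as CPM. The genes and lists were chosen with earlier results of these data known. Simulated counts for TGFb in WT covered 13008 genes: the test found 14 of 100 genes changed 2-fold and 93 of 100 changed 4-fold, and 5 of its 112 calls were false. The changed genes were drawn only from genes with more counts in untreated 4-day WT than Acta2, Actg2, Tagln, Cnn1, Myl9 and Mylk had. The recovery thus does not apply to those genes.

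Alternatives were median-ratio scaling, no filter, a minimum of 5 CPM, DESeq2, only the libraries of one experiment, a replicate block, and leaving out single libraries. A block crossed between the lines and a spline (5 degrees of freedom) on GC content and transcript length were chosen after seeing the data. Identities and identical runs of the coding sequences came from global pairwise alignments with Biopython, and the printed coding starts from an alignment with MAFFT 7.526. Versions were R 4.3.3, edgeR 4.0.16, DESeq2 1.42.0, Python 3.11.15, pandas 2.3.3 and Biopython 1.88.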

Additional observations from a re-analysis of the deposited data

Results flagged for a closer look

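The 5 results below stood out because the response of the 2 lines to the same treatment differed in a direct test of the difference (edgeR's quasi-likelihood test, AE minus WT on the log2 scale). For TGFb these were Acta1 at -4.85 (adjusted p = 0.036), Acta2 at -9.16 (adjusted p = 0.0037), Mylk at -3.70 (adjusted p = 0.0038) and Csrp1 at -1.97 (adjusted p = 0.025). For Wnt3a it was Acta1 at -7.26 (adjusted p = 0.02). For Acta1 and Csrp1 with TGFb the 2 lines moved in opposite directions in every library (Acta1 higher in WT and lower in AE, Csrp1 likewise). Acta2 and Mylk started from high levels in untreated AE, at 68.6 and 63.7 CPM for Acta2 and 12.6 and 13.3 CPM for Mylk, and were at 0 and at 0.306 and 0.613 CPM in untreated WT.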

How the results depend on the processing

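Counts of contractile genes passing are given against those in the report: 6 and 0 with TGFb in WT and AE, 1 and 2 with Wnt3a in WT and AE, 9 for AE against WT, and 4 and 1 for the difference in the TGFb and the Wnt3a response. Over the 16 fits that each left out a library, they ranged from 3 to 7, 0 to 2, 0 to 2, 0 to 6, 9 to 10, 2 to 6 and 0 to 3 in that order. With no filter on low counts Wnt3a in WT gave 2, and with a minimum of 5 CPM Wnt3a in AE gave 1. DESeq2 gave 2 for Wnt3a in WT and 2 for the Wnt3a response difference. The libraries of each experiment alone gave 6 for TGFb in AE, 0 for Wnt3a in WT, 0 for Wnt3a in AE, 8 for the TGFb response difference and 0 for the Wnt3a response difference. The added correction for GC content and length gave 2 for TGFb in AE and 2 for Wnt3a in WT. The causes were not tested. All 9 calls of AE against WT, those of Acta2, Tagln and Mylk with TGFb in WT, and those of Acta2 and Mylk in the TGFb response difference held in all 24 alternatives, and no called change reversed sign. Actg2, Cnn1 and Myl9, among the calls of AE against WT, met the filter on low counts only through AE libraries. That their calls held was thus in part a condition of their being tested.

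The replicate numbers are not said to pair samples, and each comparison has too few pairs to show it. Deviations of same-numbered libraries correlated at 0.20 to 0.72 between the treated and untreated groups compared within a line, and at -0.28 and -0.52 between the untreated groups of the lines. The replicate block gave 1 for TGFb in AE, 0 for Wnt3a in WT, 0 for Wnt3a in AE and 2 for the TGFb response difference. For TGFb in WT it gave 7 in place of 6: Actg2 (adjusted p = 0.0497) and Myl9 (0.0325) passed and Csrp1 (0.072) did not. The block crossed between the lines, added after seeing the data, gave 4, 2, 4 and 7 for these and 3 for the Wnt3a response difference.

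Over all genes, 3634 and 1371 passed for TGFb in WT and AE, 564 and 1229 for Wnt3a, 7082 for AE against WT, and 1163 and 308 for the response differences. These counts moved by over 1.5 times with DESeq2 (1291 for Wnt3a in WT and 703 for its response difference). With the experiment alone they were 7213 and 4517 for TGFb in WT and AE, 20 and 357 for Wnt3a, and 3890 and 8 for the differences. With the crossed block they were 2126 for TGFb in AE, 2289 for Wnt3a in WT, and 1752 and 1156 for the differences. With the GC correction they were 6026 and 3139 for TGFb, 1831 and 2642 for Wnt3a, and 2588 and 1023 for the differences. Depth limits Acta2, Actg2, Cnn1, Myl9 and Tagln in WT, where groups of 2 libraries had 0 to 6 counts untreated.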
